A study of Mus musculus with 6 samples.

Results

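Axon guidance ligands and receptors were examined in single hypothalamic cells of mice given FGF1 R50E. The members were the gene symbols of the deposited count table that name an ephrin (Efna, Efnb), an Eph receptor, a semaphorin of classes 3 to 7, a plexin, a neuropilin, a Slit, a Robo, a netrin or an Unc5 receptor, which gave 65 of 16411 genes. They were 33 ligands, 31 receptors and 1 antisense RNA, Plxna4os1, and the rule reads gene symbols alone. A UMI (unique molecular identifier, a counted RNA molecule) was found for 64 of them, and Robo3 was listed at 0 in every cell.

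The cells came from male ob/ob mice, which lack functional leptin and are obese and diabetic, aged 11 weeks and killed on day 5 after an injection into a brain ventricle of 3 µg of R50E, which is FGF1 (fibroblast growth factor 1) mutated so that it binds integrins poorly. All labelled samples carried that one treatment, so no treated and untreated groups could be compared, and every comparison below is between cell types of the same mice. The labels name 6 mice, of which mice 3, 4, 30 and 34 had cells in the table, 20151 in all, while mice 12 and 37 had none there and were not analysed here. Cell types are the authors' own labels, and if those were drawn from the same UMI counts, as is usual, the p-values compare labelled groups and are no independent evidence that the types differ.

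Guidance molecules were named for steering growing axons, and most act as ligand and receptor pairs. Ephrins stay on the membrane and signal to Eph receptors by contact, semaphorins signal through plexins with neuropilins as co-receptors for the secreted class 3, Slits bind Robo receptors, and netrins bind Dcc and the Unc5 receptors. In the adult brain the same families work in vessels, in the oligodendrocyte lineage and in glia that line the ventricles, where they bear on migration, vessel branching and contact between cells.

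The sums of UMIs ranged from 3299971 to 8856079 per mouse. Leaving aside vascular leptomeningeal cells, the smallest sum of a mouse and type, 44756 UMIs, was that of the 34 microglia of mouse 4. Levels are given as CPM, that is, UMIs of a gene scaled to 1000000 UMIs of that mouse and type, and since the method reads only the 3' ends of RNA and no lengths were used, levels are compared between types and not between genes. Each of the 9 labels was checked against 4 or 5 markers, which were highest in their own type except Vim, a tanycyte marker that was highest in ependymal cells, and Mbp, a myelin gene that was highest in committed precursors. Between 18 and 66 cell barcodes were shared by each pair of mice. RNA of oligodendrocytes was counted in the other types too: Mag, a myelin adhesion gene, stood at 1476 CPM in oligodendrocytes and at 0.555% to 3.12% of that level in 6 types, leaving aside committed precursors, and had 0 UMIs in the 68 vascular leptomeningeal cells. Other myelin genes stood higher there: in pooled cells Mobp was at 292 to 488 CPM in those 6 types against 3395 in oligodendrocytes, and Mbp at 1347 to 2645 against 7738.

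Of the 65 members, 28 reached a mean of 50 CPM in at least 1 of 8 types, and in 21 of these all 4 mice were higher in the leading type than any mouse in the next type. Over all 6580 genes that reached 50 CPM in some type, the groups did not overlap for 44.8%. Endothelial cells were the leading type of 8 of the 28, committed precursors of 6, oligodendrocyte precursor cells of 4, tanycytes and oligodendrocytes of 3 each, astrocytes and ependymal cells of 2 each and microglia of 0. Of the members that stayed under 50 CPM, 16 had between 1 and 99 UMIs in all cells together, among them Sema3a, with 30, and Epha8, with 12. The other 20 had 101 to 441 UMIs and peaked at 6.503 to 47 CPM. Among these 20, Plxna3 and Ephb6 in precursor cells, Sema4b in astrocytes, Sema3b in ependymal cells and Ephb4 in endothelial cells did not overlap with the next type, at 43.2, 30.9, 47, 12.5 and 32.6 CPM. Of the 16 sparse members, Epha3 in ependymal cells, at 12.7 CPM and with 62 UMIs in all cells, did not overlap either. The share over all genes under 50 CPM was not computed.

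**Figure D1:**
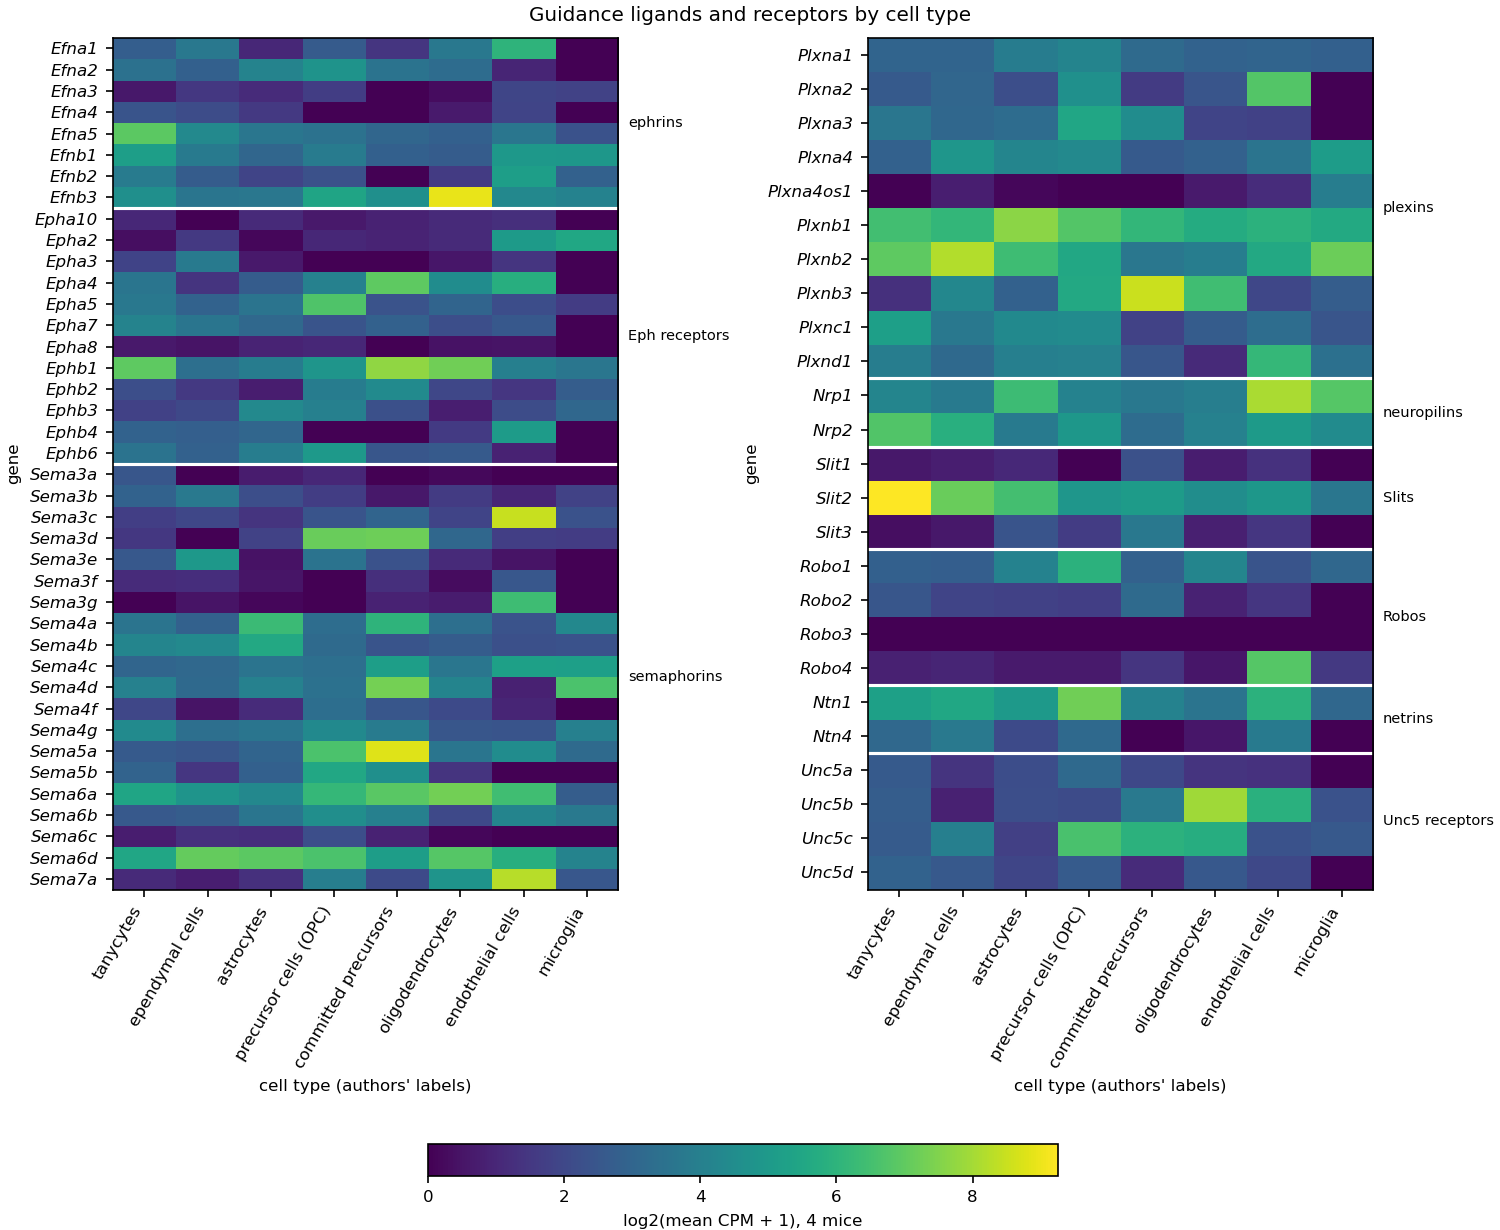
Mean level of each member (rows, grouped by family; the antisense RNA Plxna4os1 stands with the plexins) in 8 cell types (columns), as log2 of the mean CPM over 4 mice plus 1. The brightest fields are Slit2 in tanycytes at 610 CPM, Efnb3 in oligodendrocytes at 496 CPM and Sema5a in committed precursors at 450 CPM.

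Tanycytes are elongated glia in the floor and walls of the third ventricle that contact both the cerebrospinal fluid and the tissue, ependymal cells are the ciliated cells beside them, and astrocytes are the star-shaped glia of the tissue. Tanycytes stood out from both by Slit2, Efna5 and Ephb1, ependymal cells by Plxnb2, and astrocytes by Sema4a, Sema4b, Nrp1 and Plxnb1. Summed UMIs were compared between types within mice by edgeR's quasi-likelihood test with mouse as a block, and a gene was called at a Benjamini-Hochberg adjusted p below 0.05 over all genes tested and a log2 fold change beyond 1 in size. Against ependymal cells, 20 members passed the filter on low counts and 7 were called higher and 5 lower in tanycytes, where 6.73% of all 8781 genes were called higher and 13.1% lower (19.8% together). Against astrocytes, 31 members passed the filter and 7 were called higher and 9 lower, where 10.1% of 10081 genes were called higher and 11% lower (21.1% together). A member often passed the filter only through the type in which it is high. These counts, those of all later comparisons and the medians over members are therefore a description. The median log2 difference over the members tested was 0.69 against ependymal cells and 0.25 against astrocytes, and over all genes it was 0.03 and -0.01. Both comparisons use the same tanycyte sums.

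Slit2, a secreted ligand that repels axons and migrating neurons, lies at chr5:47981291-48307735 (GRCm38.p6, RefSeq). Its tanycyte levels were 639 CPM in mouse 3, 642 in mouse 4, 520 in mouse 30 and 639 in mouse 34, against 188, 167, 90.7 and 115 in ependymal cells and 73.0, 113, 104 and 69.5 in astrocytes. Every tanycyte value lay far above those of the other types, and mouse 30 was the lowest of the 4 in both ventricular types. The log2 difference was 2.24 ± 0.11 (SE) from ependymal cells, with an adjusted p of 4.82e-21, and 2.86 ± 0.11 from astrocytes, with an adjusted p of 8.54e-23. Outside these 3 types Slit2 stood at 1.88% to 5.43% of its tanycyte level, beside 0.96% to 4.53% for the tanycyte marker Col23a1 in the same types. Astrocytes held 14.7% of the Slit2 level, against 18.2% for the marker Rax, 8.08% for Col23a1 and 2.92% for Crym. Ependymal cells held 23.0%, against 2.17%, 5.25% and 1.43% for the same markers. The part that free tanycyte RNA has in these levels was not tested. Of the Robo genes, Robo1 averaged 6.15 ± 1.79 CPM in tanycytes (SD, n = 4), below the 16.3 ± 4.36 of astrocytes at a log2 difference of -1.44, and Robo4 had 5 UMIs in the 4490 tanycytes. Robo2 was sparse in every type, with 72 UMIs in all cells, 31 of them in tanycytes, which came second of 8 types at 4.601 CPM after committed precursors at 8.26.

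The ephrins Efna5 and Efnb1 and the receptor Ephb1 were called higher in tanycytes than in both other types. Efna5, a membrane-anchored A-class ephrin, was at 112, 125, 120 and 125 CPM in tanycytes of mice 3, 4, 30 and 34, at 27.5, 17.3, 14.8 and 19.2 in ependymal cells and at 7.25, 16.7, 14 and 7.5 in astrocytes. The tanycyte values were close to each other and did not overlap with either type. The log2 difference was 2.65 ± 0.19 from ependymal cells and 3.62 ± 0.17 from astrocytes, with adjusted p-values of 6.86e-16 and 1.27e-19. Ephb1, a receptor for B-class ephrins, was at 115, 128, 152 and 104 CPM in tanycytes, at 12.9, 2.89, 12.7 and 9.62 in ependymal cells and at 5.89, 27.0, 18.0 and 4.00 in astrocytes. It was higher by 3.65 ± 0.22 and 3.57 ± 0.21 on the log2 scale, again without overlap. Its ligands Efnb1 and Efnb2 were also called higher in tanycytes than in astrocytes, at 35.7 ± 3.46 against 7.22 ± 2.59 CPM and at 13.5 ± 3.87 against 2.69 ± 1.27 CPM. Against ependymal cells Efnb1 was higher by 1.62 ± 0.27, and Efnb3 by 1.30 ± 0.31, a call that was lost without mouse 34, where the value was 0.96. Sema4g, a membrane semaphorin, was higher than in ependymal cells by 1.13 ± 0.32 with overlapping values, and by 0.83 without mouse 3, no longer a call.

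Nrp2, a co-receptor for class 3 semaphorins, was at 111, 126, 93.7 and 94.1 CPM in tanycytes, at 46.9, 57.7, 63.3 and 57.7 in ependymal cells and at 8.61, 21.8, 14 and 6.5 in astrocytes. The 3 types did not overlap, and the order was the same in all 4 mice. Tanycytes exceeded astrocytes by 3.30 ± 0.18 on the log2 scale and ependymal cells by 0.98, which is just under the size needed for a call, while astrocytes were lower than ependymal cells by -2.23 ± 0.26. Its relative Nrp1 ran the other way: 93.8, 73.2, 66.0 and 91.5 CPM in astrocytes, 21.6, 17, 9.48 and 21.9 in tanycytes, and 14.6, 17.3, 12.7 and 7.22 in ependymal cells. Astrocytes were above both without overlap, by 2.90 ± 0.24 over ependymal cells, and tanycytes stood at -2.19 ± 0.15 relative to astrocytes.

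Plexins, the signalling receptors of semaphorins, divided among the 3 types. Plxnb2 was at 270, 306, 281 and 312 CPM in ependymal cells, at 135, 129, 107 and 124 in tanycytes and at 76.6, 74.5, 112 and 69.5 in astrocytes. Ependymal cells were the highest of all 8 types for Plxnb2, and their lowest mouse stood above the highest mouse of microglia, the next type, at 195 CPM. Tanycytes were lower than ependymal cells by -1.14 ± 0.10 (adjusted p of 1.00e-12) and astrocytes by -1.75 ± 0.14 (adjusted p of 9.71e-10). Plxnb1, a receptor for Sema4d, averaged 201 ± 12.8 CPM in astrocytes, 86.3 ± 9.30 in tanycytes and 68.8 ± 12.2 in ependymal cells. Plxna4 and Plxnb3 were lower in tanycytes than in ependymal cells by -2.16 ± 0.34 and -3.32 ± 0.48, and Plxnc1 was higher by 1.71 ± 0.27.

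Semaphorins also separated the types. Sema4a, a membrane-bound semaphorin, was at 81.1, 83.5, 68.0 and 79.5 CPM in astrocytes, at 11.8, 9.07, 11.6 and 11.2 in tanycytes and at 6.47, 2.89, 12.7 and 3.61 in ependymal cells. Astrocytes were 3.75 ± 0.29 above ependymal cells on the log2 scale, and tanycytes stood at -2.84 ± 0.17 relative to astrocytes. Sema4b averaged 47 ± 3.99 CPM in astrocytes and 17.7 ± 7.88 in tanycytes. Sema6d, which binds A-class plexins, was lowest of the 3 in tanycytes, with 43.6 ± 9.43 CPM in tanycytes and 133 ± 12.2 and 121 ± 10.8 in ependymal cells and astrocytes. Sema3e, a secreted ligand of Plxnd1, was at 30.7, 20.2, 29.5 and 37.3 CPM in ependymal cells, at 5.90, 5.67, 6.32 and 1.68 in tanycytes, and had 3 UMIs in all 5909 astrocytes against 71 in 1530 ependymal cells. The pooled ratio of ependymal cells to astrocytes was 57.2, with a 95% counting interval of 18.8 to 284 (exact, covering counting error only). Ependymal cells and tanycytes did not overlap for Sema3e, but ependymal cells of mouse 4, at 20.2 CPM, stood below the highest oligodendrocyte precursor value of 20.6 CPM. In the comparison of astrocytes with ependymal cells, 15 members passed the filter and 4 were called higher and 4 lower in astrocytes, where 14.3% of 8371 genes were called higher and 17.6% lower (31.8% together).

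**Figure D2:**
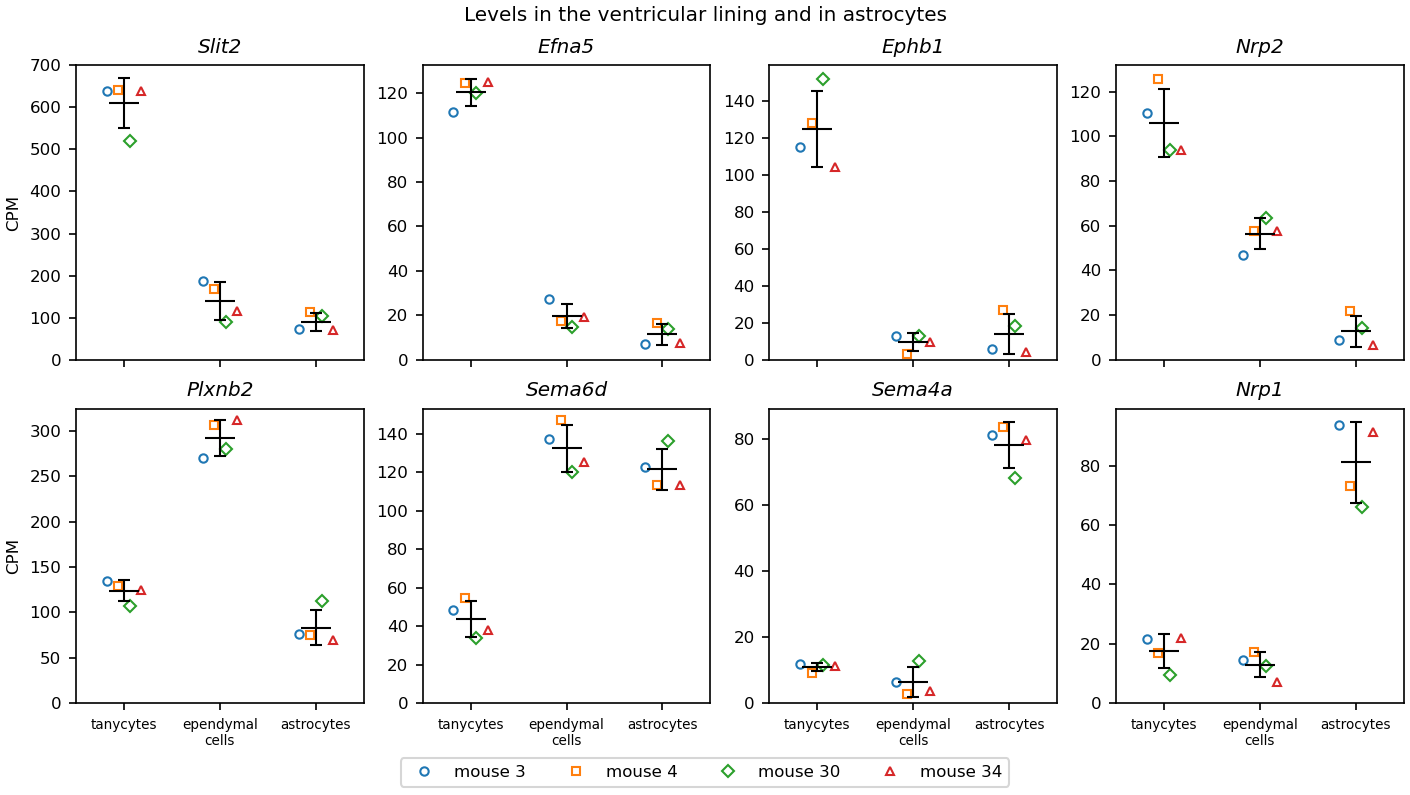
CPM of 8 members in tanycytes, ependymal cells and astrocytes, 1 symbol per mouse, with the mean and SD of 4 mice in black. Slit2, Efna5 and Ephb1 were high in tanycytes, Plxnb2 was highest in ependymal cells, and Sema4a and Nrp1 were high in astrocytes.

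Along the oligodendrocyte lineage, oligodendrocyte precursor cells divide and migrate, committed precursors have left the cycle and begin to differentiate, and oligodendrocytes form myelin. Sema5a, Plxnb3, Sema4d and Epha4 were high in committed precursors, Ntn1, Epha5 and Robo1 in precursor cells, and Efnb3 and Unc5b in oligodendrocytes. At the first step 16 members passed the filter and 6 were called higher and 4 lower in committed precursors, where 10.8% of 4879 genes were called higher and 13.2% lower (24% together). At the second step 16 passed and 4 were called higher and 7 lower in oligodendrocytes, where 13.8% of 6209 genes were called higher and 13.3% lower (27.1% together). Both steps use the same committed precursor sums, so they are not independent of each other. Here too a member often passed the filter only through the stage in which it is high. The median log2 difference over the members tested was -0.25 at the first step and -0.34 at the second, beside -0.01 and 0.01 over all genes. Committed precursors also had the most UMIs per cell, with a median of 1771 against 1020 in precursor cells and 1136 in oligodendrocytes, and their sum of 5 myelin markers, 29454 to 35434 CPM per mouse, was near the 40796 to 49885 CPM of oligodendrocytes.

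Promoters are shown for members that were called higher in committed precursors than in precursor cells, which is how they were selected. They span 250 bases before to 50 bases after the transcription start, from RefSeq (GRCm38.p6), 5' to 3' on the gene's strand, with matches to the letters ACAATG or ACAAAG on either strand in capitals. These are core letters of SOX factors, a family that includes Sox10 of this lineage, and were chosen with the matches in view. Of the 6 members, 4 had ACAATG in a promoter, in 4 of their 11 promoters in all, and 1 had ACAAAG, while 12.6% and 18.7% of all 32851 promoters held these letters. Sema5a and Epha4 had neither in these windows. Sema4a has 4 promoters in the table and Sema4d has 3, and the one shown is that with a match. Plxnb3 is at chrX:73756853-73757152 (+), Ephb1 at chr9:102354644-102354943 (-), Sema4a at chr3:88458835-88459134 (-) and Sema4d at chr13:51748761-51749060 (-).
Plxnb3: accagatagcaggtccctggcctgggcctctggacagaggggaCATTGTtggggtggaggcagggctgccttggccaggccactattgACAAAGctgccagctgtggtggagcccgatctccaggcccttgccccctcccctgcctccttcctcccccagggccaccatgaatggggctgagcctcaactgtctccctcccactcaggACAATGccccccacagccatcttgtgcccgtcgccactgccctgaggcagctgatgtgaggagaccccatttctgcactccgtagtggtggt
Ephb1: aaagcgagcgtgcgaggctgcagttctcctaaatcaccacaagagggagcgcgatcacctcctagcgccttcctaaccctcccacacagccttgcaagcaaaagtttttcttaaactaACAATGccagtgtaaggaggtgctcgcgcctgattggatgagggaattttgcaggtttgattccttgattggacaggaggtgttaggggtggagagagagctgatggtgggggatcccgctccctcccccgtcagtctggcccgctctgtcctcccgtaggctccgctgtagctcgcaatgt
Sema4a: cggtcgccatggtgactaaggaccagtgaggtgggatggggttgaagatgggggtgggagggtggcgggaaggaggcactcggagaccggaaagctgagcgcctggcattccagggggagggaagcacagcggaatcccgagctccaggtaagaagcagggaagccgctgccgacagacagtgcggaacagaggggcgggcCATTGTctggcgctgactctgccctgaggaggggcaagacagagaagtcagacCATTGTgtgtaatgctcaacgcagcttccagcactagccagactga
Sema4d: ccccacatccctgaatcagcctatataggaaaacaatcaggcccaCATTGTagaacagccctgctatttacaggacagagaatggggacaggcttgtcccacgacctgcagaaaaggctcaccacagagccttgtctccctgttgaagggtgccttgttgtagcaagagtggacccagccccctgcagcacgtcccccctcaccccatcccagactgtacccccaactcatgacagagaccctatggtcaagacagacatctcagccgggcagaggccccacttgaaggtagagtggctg

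Sema5a, a membrane semaphorin that can attract or repel, was at 508, 482, 364 and 446 CPM in committed precursors of mice 3, 4, 30 and 34, against 114, 82.0, 80.7 and 112 in precursor cells and 14.2, 6.63, 10.3 and 13 in oligodendrocytes. The 3 stages did not overlap, and the order was the same in every mouse. It was higher by 2.21 ± 0.14 (SE) on the log2 scale at the first step and lower by -5.01 ± 0.16 at the second, with adjusted p-values of 1.51e-26 and 5.60e-41. Plxnb3, a B-class plexin known as a receptor of Sema5a, was also highest at the middle stage: 448, 356, 268 and 370 CPM in committed precursors, 48.2, 28.7, 59.4 and 52.8 before and 90.5, 79.5, 78.2 and 91.6 after. It stood 2.99 ± 0.17 above precursor cells, and oligodendrocytes stood at -1.85 ± 0.12 relative to committed precursors. This ligand and this receptor were thus both highest, of 8 types, in committed precursors, and the lowest mouse of that type was above the highest of any other type for each.

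Sema4d, a membrane semaphorin that binds Plxnb1, was at 179, 194, 172 and 97.8 CPM in committed precursors, at 17.5, 4.10, 8.49 and 9.18 in precursor cells and at 11.2, 11.4, 30.9 and 15.7 in oligodendrocytes. Mouse 34 was the lowest in committed precursors and was still above every value of the other stages. The log2 difference was 3.81 ± 0.27 at the first step and -3.13 ± 0.21 at the second. Sema4a, which is also high in astrocytes, was at 64.4 ± 9.62 CPM (SD, n = 4) in committed precursors, 8.81 ± 5.36 before and 9.37 ± 6.5 after. The Eph receptor Epha4 was at 157, 102, 90.9 and 149 CPM in committed precursors, 15.7 ± 2.61 before and 21.7 ± 11.9 after. Ephb1 was higher at the first step, from 27.6 ± 6.88 to 210 ± 37.2 CPM, and had 152 ± 13.7 CPM in oligodendrocytes, a difference that was not called.

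Other members marked precursor cells and were lower in committed precursors. Ntn1, the secreted netrin that guides axons through Dcc and Unc5 receptors, was at 158, 107, 187 and 158 CPM in precursor cells and at 10.0, 17, 19.1 and 18.1 in committed precursors. Epha5, an Eph receptor, was at 138, 82.0, 119 and 78.0 CPM and then at 6.02, 6.79, 0 and 3.62. Robo1, a Slit receptor, was at 52.5, 69.7, 59.4 and 61.9 CPM and then at 6.02, 3.40, 4.79 and 10.9. None of these 3 overlapped between stages, and the log2 differences were -3.27 ± 0.26, -4.40 ± 0.37 and -3.14 ± 0.41. The sum of 5 neuron markers was also higher in precursor cells, at 259 to 430 CPM per mouse against 100.5 to 234 in committed precursors, and its part in these differences was not tested. Robo1 and Ntn1 were higher in precursor cells than in any other of the 8 types without overlap, and so was Epha5. Sema3d, a secreted semaphorin, was at 139 ± 32.6 CPM in precursor cells and 147 ± 27.4 in committed precursors, a difference inside the spread between mice, and at 7.57 ± 1.23 in oligodendrocytes, lower at the second step by -3.94 ± 0.22.

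Oligodendrocytes were marked by a ligand and a receptor. Efnb3, a B-class ephrin at chr11:69554092-69561150, was at 561, 472, 416 and 537 CPM in oligodendrocytes and at 24.1, 27.2, 14.4 and 29.0 in committed precursors. Unc5b, a netrin receptor, was at 254, 214, 228 and 268 CPM and at 18.1, 13.6, 0 and 18.1. No oligodendrocyte value overlapped with the earlier stage, with log2 differences of 4.66 ± 0.17 (adjusted p of 7.52e-37) and 4.37 ± 0.22 (adjusted p of 8.00e-29). Committed precursors held 4.77% of the oligodendrocyte level of Efnb3 and 5.16% of that of Unc5b, against 42.3% for the myelin gene Mag and 15.9% for Mog, while Mobp was at 296 CPM in pooled committed precursors. In the other types Efnb3 stood at 2.23% to 8.39% of its oligodendrocyte level, and what share of this is free RNA was not tested. Sema6d dipped in committed precursors, from 99.1 ± 22.6 to 34.7 ± 16.3 and back to 113 ± 12.7 CPM, with both steps called. Sema7a was higher at the second step, from 3.26 ± 2.48 to 26.9 ± 5.55 CPM, and Sema4c lower, from 35.3 ± 6.44 to 11.6 ± 3.16 CPM.

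**Figure D3:**
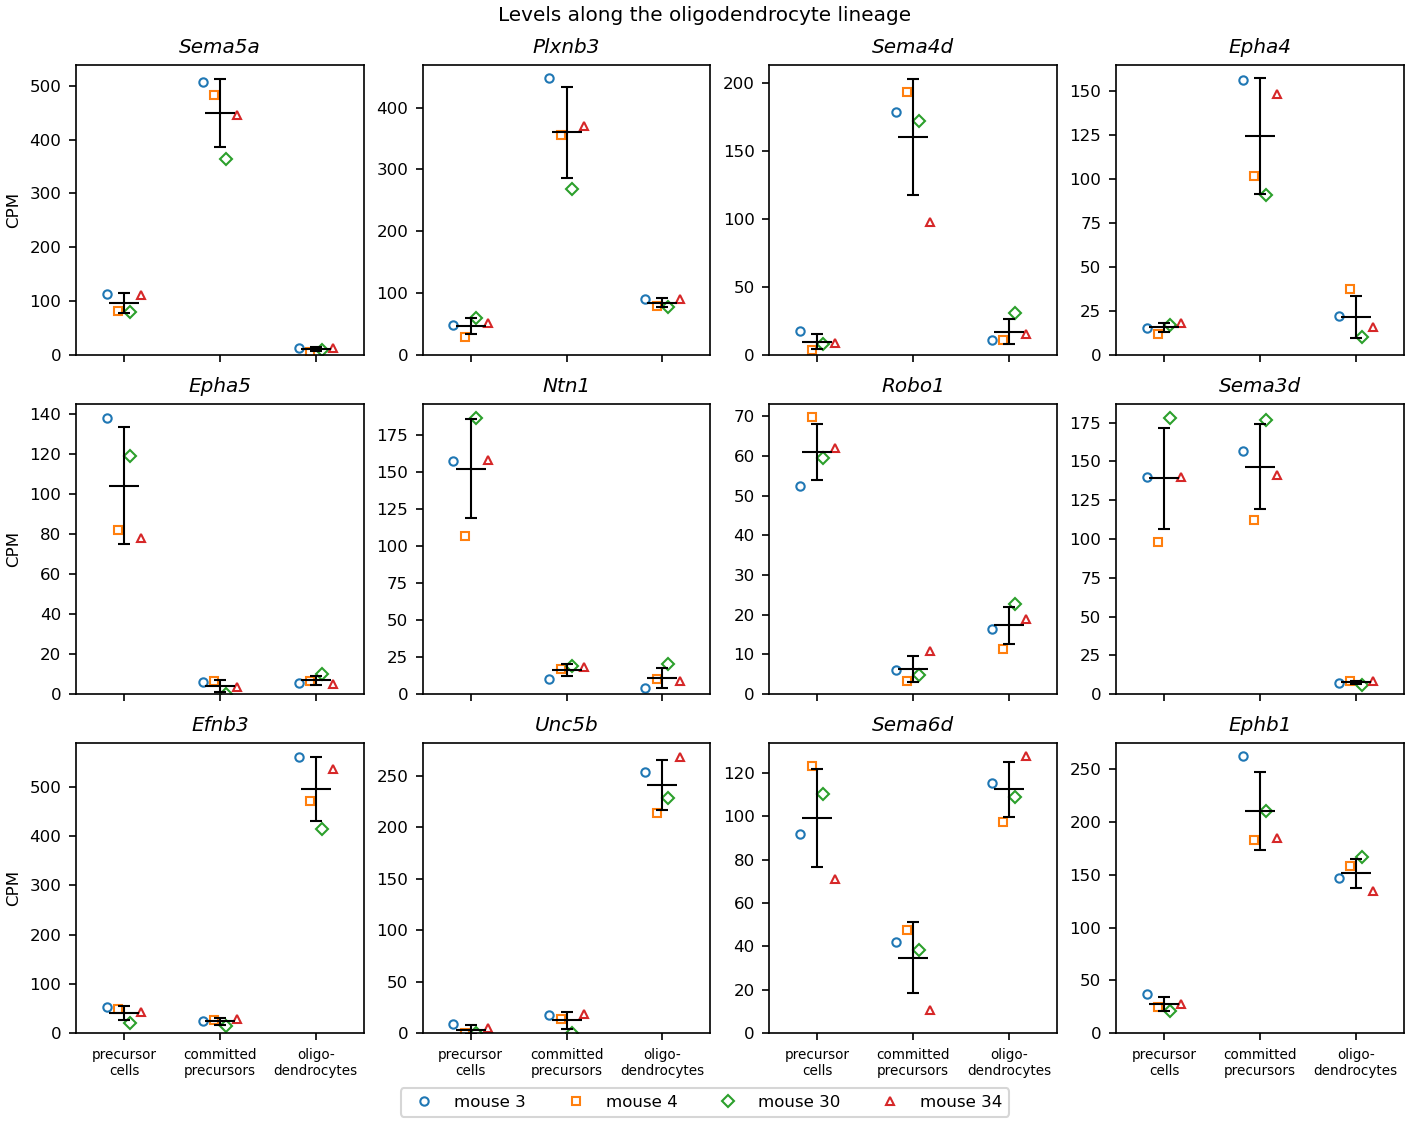
CPM of 12 members in oligodendrocyte precursor cells, committed precursors and oligodendrocytes, 1 symbol per mouse, with the mean and SD of 4 mice in black. Sema5a, Plxnb3, Sema4d and Epha4 peaked in committed precursors, Epha5, Ntn1 and Robo1 were highest in precursor cells, and Efnb3 and Unc5b were highest in oligodendrocytes.

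In vessels, class 3 semaphorins, neuropilins, Robo4 and ephrins take part in branching, barrier and arterial or venous identity. The cells labelled endothelial had the most members at 50 CPM or more (21.9%, beside 19.1% of all genes). In 1 fit of 8 types, 17 members were called higher and 8 lower than in the unweighted mean of the other 7 types. This fit averages the log levels of the 7 types, so types near 0 pull that mean down. A log2 difference can thus exceed the one between mean CPM. Unc5b averaged 57.8 CPM against 38.7 over the other types, with a log2 difference of 2.96. Sema5a, not called, came out at 0.40 although it was lower, at 21.4 against 83.2 CPM. Of all 10166 genes in that fit, 14.2% were called higher and 9.08% lower (23.3% together). Of the 44 members tested, 12 had 0 UMIs in some type over all mice, where a fitted log2 difference depends on the small count that edgeR adds, so the next-highest type is given beside the members described. For 6 of these that were low in endothelial cells (Plxna3, Sema3d, Sema3e, Ephb6, Efna2 and Sema5b) the adjusted p came out at 1, which is a failure of this contrast of type means with a type at 0 and does not show that they did not differ. Members called lower are therefore counted too few here. Against the summed UMIs of the other types, an alternative chosen after seeing the data, 16 members were called higher and 18 lower of 46 tested, beside 13.6% and 18% of all genes. DESeq2 called 17 and 12 in the main contrast, beside 13.7% and 9.95% of all genes. The label also held RNA of mural cells (pericytes and smooth muscle): 61.8% to 81.6% of its cells per mouse had a UMI of a mural marker, 285 of 1266 had more mural than endothelial marker UMIs, and 7 mural markers summed to 3446 to 3865 CPM there against at most 254 CPM in any mouse of the other 7 types of the fit. Whether this came from mural cells, from mixtures of cells or from free RNA was not tested. The vascular leptomeningeal cells, which are not in the fit, had a pooled mural sum of 2219 CPM.

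Sema3c, a secreted semaphorin, was at 334, 303, 387 and 381 CPM in endothelial cells, and the next type averaged 6.96 CPM, a ratio of 50.5. Sema3g was at 65.1, 91.0, 87.3 and 89.9 CPM and the next type at 0.85 CPM. Sema7a, a membrane-anchored semaphorin that binds Plxnc1 and integrins, was at 257, 299, 376 and 283 CPM and oligodendrocytes, next, at 26.9 CPM. None of the 3 overlapped with any other type, and the log2 differences from the mean of the other types were 6.74 ± 0.15 for Sema3c, 7.90 ± 0.37 for Sema3g and 6.32 ± 0.18 for Sema7a.

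Several guidance receptors were also called higher in these cells. Nrp1, the co-receptor that also binds VEGF, was at 245, 269, 334 and 219 CPM, above microglia, the next type, by a ratio of 2.41. Plxnd1, the plexin of endothelium, was at 66.8, 60.7, 106 and 47.4 CPM against 15.6 in the next type, and Plxna2 at 71.9, 108, 175 and 80.1 CPM against 24.3. Robo4, the endothelial Robo at chr9:37401902-37414023, was at 135, 86.7, 114 and 108 CPM, and microglia, the next type, averaged 1.87 CPM on a single UMI. The groups did not overlap for these 4 receptors, with log2 differences of 3.40 ± 0.13, 3.38 ± 0.26, 5.06 ± 0.28 and 6.67 ± 0.28. The plexin of Sema7a, Plxnc1, averaged 8.92 CPM in endothelial cells and 36.8 CPM in tanycytes, its highest type.

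Ephrins and Eph receptors of vessels followed. Efna1 was at 65.1, 60.7, 75.9 and 54.0 CPM and 12.2 CPM in ependymal cells, the next type, without overlap. Its receptor Epha2 was at 24.0, 34.7, 41.7 and 27.8 CPM in endothelial cells and at 59.95, 22.3, 20.3 and 75.8 in microglia, which overlap. Efnb2, an arterial ephrin, averaged 35.5 ± 14.2 CPM, with mouse 4 at 17.3 inside the tanycyte range, and its venous receptor Ephb4 averaged 32.6 ± 8.29 CPM, with the next type at 7.37 and no overlap. Epha4 averaged 54.2 ± 6.38 CPM, below the committed precursors.

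**Figure D4:**
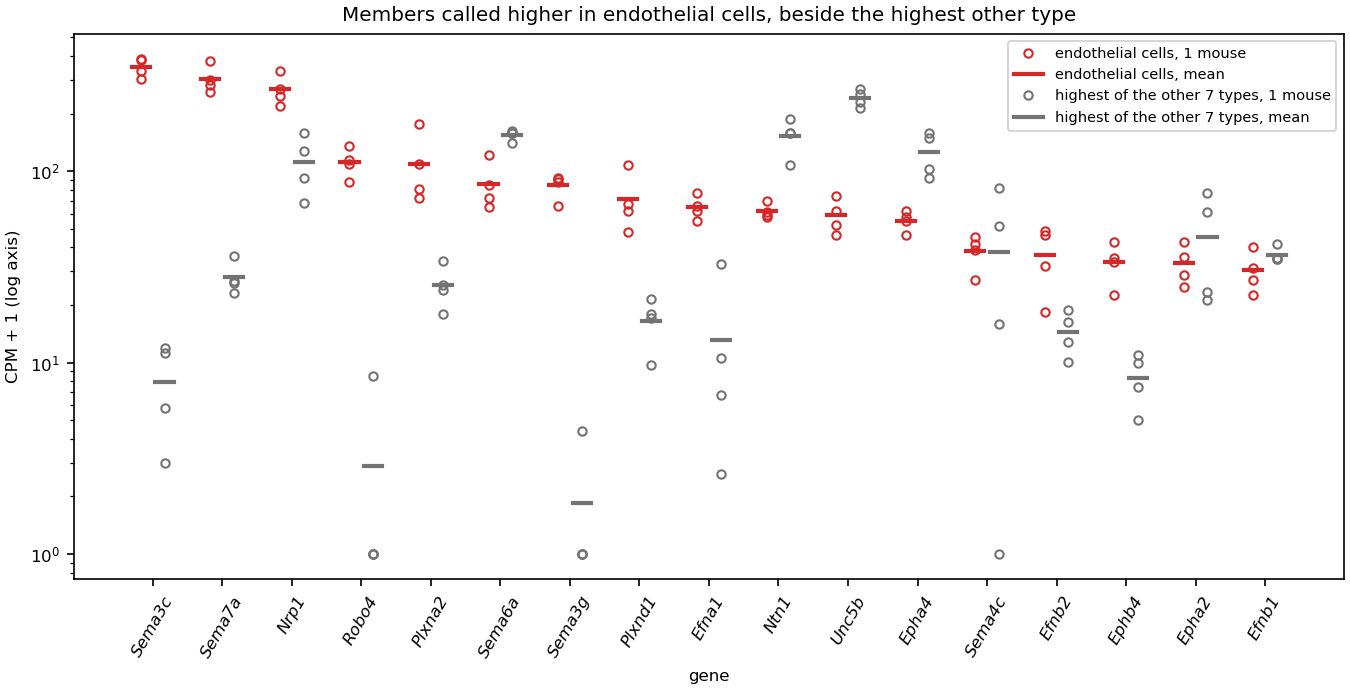
The 17 members called higher in endothelial cells (red) beside the highest of the other 7 types for each (grey), as CPM plus 1 on a log axis, with 1 circle per mouse and bars for the mean of 4 mice. From Sema3c to Sema3g several members stand far above any other type, while for Ntn1, Unc5b, Epha4, Sema6a, Epha2 and Efnb1 another type has a higher mean.

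Values were also taken apart by the mural and endothelial marker UMIs of the cells. Ntn1 averaged 48.9 ± 8.34 CPM in cells with more endothelial marker UMIs and 104 ± 12.2 CPM in those with more mural ones, with no overlap between the 4 mice of each. Its log2 difference from the other types was 1.38 ± 0.22, and it became -1.24, no longer called, when cells with a mural UMI, most of the label's cells, were left out. The cause of that change was not tested. Unc5b was called at 2.96 ± 0.25, although oligodendrocytes were higher, and against the summed UMIs of the other types it was at -0.02. Ntn1 and Unc5b are outside the 12 highest members and were picked after these values were seen. Sema3c averaged 392 ± 42.0 CPM in cells with more endothelial marker UMIs and 243 ± 76.7 in those with more mural ones, and Robo4 126 ± 23.1 and 68.3 ± 23.2, both without overlap. Sema7a, at 318 ± 29.5 and 261 ± 124, Nrp1, at 267 ± 69.8 and 247 ± 79.3, Sema3g, at 84.0 ± 21.1 and 88.8 ± 53.1, and Efnb2, at 33 ± 12.4 and 39.1 ± 29.6, overlapped. The 45 cells with equal counts are in neither set. All 25 calls were kept in the cells with more endothelial marker UMIs alone, and 16 without any cell with a mural UMI. The members called lower in endothelial cells were Sema4d, with 2 UMIs in 1266 cells, Plxnb3, Sema4a, Unc5c, Ephb1, Sema4b, Sema4g and Robo1. Calls of Sema4b, Sema4g and Robo1 were lost without mouse 3, with edgeR adjusted p-values of 0.0700, 0.0565 and 0.0846, and without mouse 34, with 0.337, 0.0776 and 0.158, and that of Robo1 also without mouse 30, with 0.0842. Plxnb3 could not be tested in this way without mouse 3, nor Unc5c without mouse 30, since each then had 0 UMIs in microglia. Without mouse 34 the value of Sema4d moved from -4.09 to -7.03 and that of Sema4a from -1.99 to -3.09.

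Microglia, the resident macrophages of the brain, held the fewest members at 50 CPM or more, Nrp1, Sema4d and Plxnb2 (4.69%, beside 17% of all genes). Of the 44 members tested, 6 were called higher and 5 lower than in the mean log level of the other types, where 10.1% of 10166 genes were called higher and 9.72% lower (19.8% together). The adjusted p was again 1 for Ephb4, Sema3g and Sema5b, each with 0 UMIs in microglia and in another type, and against the summed UMIs of the other types 5 were called higher and 14 lower, beside 9.97% and 11.7% of all genes. In this fit the median log2 difference over all genes was -0.36, and over the members it was -1.08. Sema4d was at 127, 134, 60.8 and 75.8 CPM in microglia, below committed precursors on average and overlapping with them, and its log2 difference was 2.86 ± 0.36 (adjusted p of 5.70e-10). Plxnb2, which binds class 4 semaphorins, was at 195, 112, 81.1 and 194 CPM, and Nrp1 at 157, 67.0, 91.3 and 126 CPM. The other types averaged 88.3 and 60.2 CPM, and the log2 differences from their mean log level were 1.58 and 2.10. Epha2 had 20 UMIs in 380 microglia and 44.6 ± 27.7 CPM, with mice 3 and 34 above mice 4 and 30.

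Plxna4, a receptor for class 6 and class 3 semaphorins, averaged 33.9 ± 12.9 CPM on 14 UMIs and was called higher by 1.75 ± 0.50. The antisense RNA Plxna4os1, which lies within the Plxna4 locus at chr6:32511141-32515576, had 7 of its 18 UMIs in microglia, and no source used here states whether UMIs were counted by strand. The calls of Plxna4 and Epha4 were lost without mouse 3 (edgeR adjusted p of 0.0561 and 0.0572), that of Slit2 without mouse 4 (0.0686), and that of Sema4c, at 0 CPM in mouse 4 and 81.1 in mouse 30, without mouse 30 (0.220) or mouse 34 (0.0940). Sema6d, Slit2, Ntn1, Sema6a and Epha4 were called lower, with 8, 6, 2, 1 and 0 UMIs in microglia. The value of Slit2 moved from -1.98 to -3.91 without mouse 3, and that of Sema6a from -4.39 to -8.46 without mouse 4. Macrophage markers (Mrc1, Pf4 and Cd163) summed to 97.4 to 404 CPM in microglia and to at most 30.4 CPM in any mouse of the other 7 types. Red blood cell markers summed to 89.4 to 1911 CPM per mouse in microglia, or 963 CPM pooled, against at most 234 CPM pooled in any other type. The part of either in these values was not tested. The 68 vascular leptomeningeal cells, 44 of them from mouse 30, were too few for a test and held 141 UMIs of members, led by Nrp1 with 22, Plxnb2 with 14 and Robo1 with 11.

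Ligands and receptors at a mean of 50 CPM or more were counted in each type. Endothelial cells had 7 ligands and 7 receptors, and committed precursors had 5 and 5. Precursor cells had 5 ligands and 4 receptors, oligodendrocytes 3 and 5, astrocytes 3 and 3, tanycytes 2 and 4, ependymal cells 2 and 3, and microglia 1 and 2. The share of members at that level ran from 4.69% in microglia to 21.9% in endothelial cells, and the share of all genes at that level was 17% in microglia and 19.1% in endothelial cells, so the endothelial share of members was near that of all genes. Semaphorins were present in 7 of 8 types and numbered 5 each in endothelial cells and committed precursors. Of these 8 types, a Slit reached the level only in tanycytes, ependymal cells and astrocytes, where it was Slit2, and a Robo only in precursor cells (Robo1) and endothelial cells (Robo4), so none of them held both at 50 CPM. Vascular leptomeningeal cells were not counted here. At 20 CPM precursor cells held Slit2 with Robo1, and endothelial cells held Slit2 with Robo4. In these 2 types Slit2 stood at only 4.56% and 4.68% of its tanycyte level. The tanycyte markers stood there at 3.34% and 4.45% (Rax), 4.53% and 4.41% (Col23a1) and 3.95% and 1.82% (Crym) of theirs. The part of free tanycyte RNA in this was not tested. Unc5c was above 50 CPM at all 3 lineage stages, with 95.7, 60.9 and 53.3 CPM on average, and Ntn1 in precursor cells and endothelial cells. Sema6d reached 50 CPM in 5 of the 8 types and Plxnb1 in 7, and Plxnb1 fell just short in microglia, at 48.8 CPM.

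**Figure D5:**
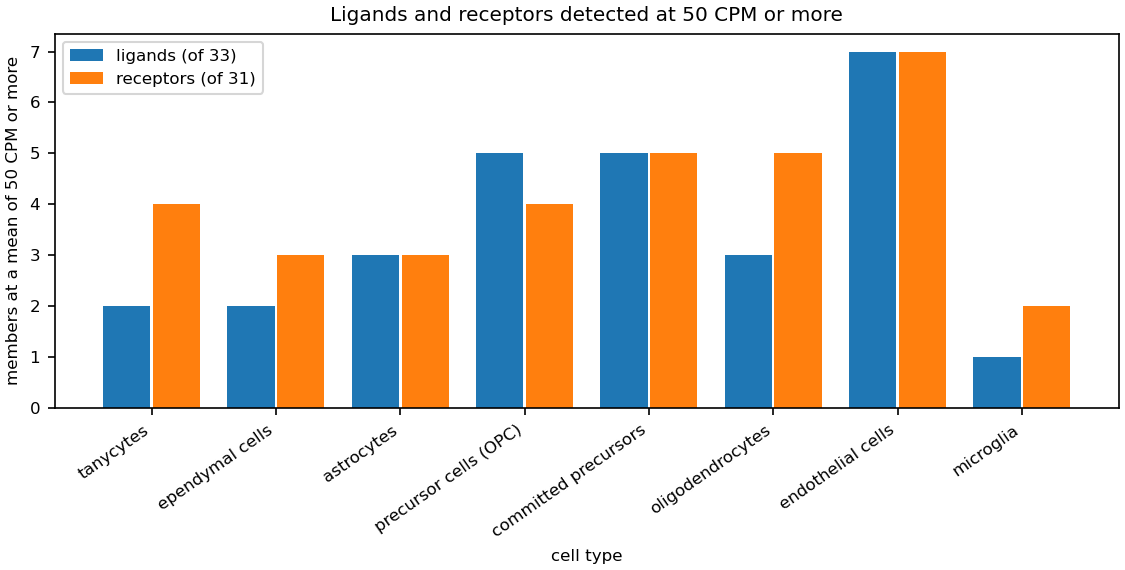
Number of ligands and of receptors with a mean of 50 CPM or more over 4 mice in each of 8 cell types. Endothelial cells had 7 of each and microglia 1 ligand and 2 receptors.

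To give the share of cells with a UMI in the leading type beside that in a type where the gene is low, cells were thinned to 500 UMIs each, leaving out 1 cell. Slit2 was then found in 25.5% ± 1.8 (SD, n = 4) of tanycytes and 0.391% of microglia, whose unthinned medians were 1143 and 939 UMIs per cell, and without thinning in 48.0% and 0.594%. Plxnb3 was found in 19.3% ± 5.2 of committed precursors and 0.0654% of tanycytes, and Sema5a in 17.7% ± 3.5 of committed precursors and 0.267% of tanycytes. Efnb3 was found in 21.6% ± 3.7 of oligodendrocytes and 0.579% of astrocytes, whose median was 851 UMIs. Sema3c was found in 16.2% ± 4.3 of endothelial cells, with a median of 1064 UMIs, and 0.0329% of astrocytes. At this depth a cell without a UMI cannot be taken to lack the RNA.

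The authors' subclusters allow a look within types. The 2 main tanycyte subclusters, of 2758 and 1731 cells, had 600 and 615 CPM of Slit2 and 99.1 and 112 CPM of Nrp2, while Efna5 was at 98.7 and 152 CPM. In the 3 oligodendrocyte subclusters of over 500 cells Efnb3 ran from 472 to 526 CPM and Unc5b from 219 to 274 CPM. The astrocyte subcluster of 806 cells had 191 CPM of Sema6d against 110 CPM in that of 5101 cells. Subclusters rest on the same counts and were not tested.

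Other genes of the guidance pathways were read from a list of 53 co-receptors and signalling proteins. Between 28 and 42 of them passed the filter in a comparison. In committed precursors against precursor cells 11 were called higher and 4 lower of 29, beside 10.8% and 13.2% of all genes. In oligodendrocytes against committed precursors 2 were higher and 10 lower of 28, beside 13.8% and 13.3%. Chn2, a Rac-inactivating chimaerin, was higher by 6.05 at the first step and lower by -2.60 at the second, Fyn, a kinase that acts below several guidance receptors and is itself a marker of committed precursors here, by 3.53 and -4.53, and Mical3, a semaphorin pathway oxidase, by 2.72 and -2.23. Trio, an exchange factor for Rac below netrin receptors, was lower by -5.62 at the second step. Dpysl3, a collapsin response mediator protein, was lower by -2.83 at the first step.

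In tanycytes against astrocytes 2 of 42 were called higher and 14 lower, beside 10.1% and 11% of all genes, with Vav3 (-4.52), Srgap1 (-2.83), Mical2 (-2.24) and Flrt1 (-1.93) lowest and Pak3 (1.80) highest. Srgap1 acts below Robo receptors. Against ependymal cells 4 of 29 were higher and 5 lower, beside 6.73% and 13.1% of all genes, led by Nrcam (1.85) and Ablim1 (-2.45). In astrocytes against ependymal cells 11 of 34 were higher and 0 lower, beside 14.3% and 17.6% of all genes. Of the 34, 6 had a negative value with an unadjusted p under 0.05 in edgeR, short of the size for a call, and DESeq2 called 11 of the list, the same number as edgeR. In endothelial cells 9 of 42 were higher and 7 lower, beside 14.2% and 9.08% of all genes, led by Kdr (6.28), the VEGF receptor that pairs with Nrp1, and Ablim1 (3.81). In microglia 2 of 42 were higher, Srgap2 (3.35) and Vav2 (2.34), and 9 lower, beside 10.1% and 9.72% of all genes.

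Variation between mice was close to that of other genes. The biological coefficient of variation, edgeR's gene-wise spread between the 4 mice beyond counting noise, had a median over members at 50 CPM or more of 0.112 in astrocytes (6 members), 0.128 in tanycytes (6), 0.131 in endothelial cells (14) and 0.239 in microglia (3). Over all genes at that level it was 0.117, 0.125, 0.117 and 0.223. The member median was above that of all genes in 6 of 8 types, but in only 4 without mouse 30, where that of microglia, then over 5 members, was 0.125 against 0.149 over all genes. Plxnb1 in precursor cells, at 55.2 to 189 CPM, and Plxna2 in endothelial cells, at 71.9 to 175 CPM, varied more than 98.9% and 97.9% of the genes of their type.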

How the data were processed

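Cells were prepared from the hypothalamus and sequenced with 10x 3' chemistry, and the deposited values are whole-number UMI counts per gene and cell with the authors' cell types and subclusters; the submitters' processing notes name Cell Ranger 1.2 and Seurat, and how the labels were made is not given in the sources used here. The table holds 70323 cells, of which 50172 belong to 12 libraries without a label in this series and were not used. Counts were summed per mouse and type and fitted in R 4.3.3 with edgeR 4.0.16 (TMM, filterByExpr, quasi-likelihood test, mouse as block since types come from the same mice). The authors also deposited a doublet score per cell, a fraction between 0 and 1. Vascular leptomeningeal cells were left out of the tests. Named members were the called ones, up to 12 by log2 difference in each direction, with the others named where stated. Alternatives were DESeq2 1.42.0 and its size factors, no filter, each mouse left out, no block, thinned sums and no cells with a doublet score above 0.2, of which there were 509, kept otherwise. In simulated data the fits found 36% to 88% of genes changed by 2-fold and 71% to 94% of those changed by 4-fold, the lowest in microglia. Found here means an edgeR adjusted p below 0.05 in the right direction, without the log2 fold change beyond 1 that a call needs. These shares therefore do not give the share that would be called. The members and lists were chosen with earlier results of these data known. Nothing states that mice 3, 4, 30 and 34 were handled in separate preparations, and only 4 mice limit the precision. Some genes of the lists are not reported here.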

Additional observations from a re-analysis of the deposited data

Results flagged for a closer look

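Among 61 pairs of member and type at 50 CPM or more, 5 had a mouse that stood apart from the other 3 by Dixon's test, where chance gives about 1 in 20. Slit2 in tanycytes was 520 CPM in mouse 30 and 639 to 642 in the others. Sema3g in endothelial cells was 65.1 CPM in mouse 3 and 87.3 to 91.0 in the others. Plxnb1 in endothelial cells was 95.3 CPM in mouse 4 and 44.5 to 52.3 in the others. Plxnb2 in astrocytes was 112 CPM in mouse 30 and 69.5 to 76.6 in the others. Sema6a in oligodendrocytes was 139 CPM in mouse 3 and 157 to 160 in the others.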

How the results depend on the processing

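Of the 93 calls of members, 91 held with DESeq2, and 93 held with its size factors and with no filter on low counts. Without mouse 3, 4, 30 or 34, 81, 92, 90 and 83 held, and 5 each fell under the filter without mouse 3 and without mouse 34. Without cells of a high doublet score 90 held, Sema4b in endothelial cells was lost and 2 had no value. No replicate block lost 1 call, that of Sema4b in endothelial cells, and gave 13, 18, 8, 10, 11, 24 and 12 calls in the 7 comparisons in the order of the report. With no filter, 23, 26, 20, 19 and 19 members were called in the comparisons of tanycytes with ependymal cells and astrocytes, of astrocytes with ependymal cells and of the first and second lineage step. Sums thinned to equal totals tested few members and called 5, 9, 5 and 7 in these comparisons other than the first lineage step, 0 in endothelial cells and 0 in microglia by edgeR, where 6 members were tested each and 1 and 0 had an unadjusted p under 0.05, and 43 of the other guidance genes in place of 90. Against the summed UMIs of the other types, an alternative chosen after seeing the data, microglia had 19 calls and the log2 fold change of Unc5b in endothelial cells against the other types was -0.0202. Without cells with a mural UMI, Ntn1 in endothelial cells was at -1.24. For these changes the cause was not tested beyond the smaller sums. Leaving out a mouse gave 11 to 14, 14 to 20, 7 to 11, 11 to 12, 10 to 13, 20 to 26 and 9 to 12 calls. At 20 and 100 CPM, 112 and 33 pairs of member and type were counted in place of 61. Without thinning 48.0% of tanycytes had a Slit2 UMI. Of the 8 types tested, microglia, with 380 cells, had the fewest cells and UMIs.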
